A study of Mus musculus with 5 samples.

Results

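Cytosolic ribosomal protein genes were sought among 29267 gene rows by their symbols, and 4 rows were found: Rplp0, Rplp1 and Rplp2, which encode the stalk of the large subunit, and Rpsa, which encodes a protein of the small subunit. The symbols sought were those of numbered large-subunit and small-subunit proteins, of the acidic stalk proteins and of Rpsa, among genes annotated as protein coding. In the GENCODE M21 annotation 83 protein-coding genes have such a symbol, and the other 79 were not analysed here. The values below therefore describe the stalk genes and Rpsa and not the ribosomal protein family as a whole. RNA sequencing was done on 5 libraries of mouse embryonic fibroblasts of the ICR strain in the course of reprogramming, with 1 library in each group. At day 4 the groups were cells expressing Flag, the control, and cells expressing CypD (cyclophilin D, a mitochondrial matrix protein that regulates the permeability transition pore). At day 8 they were an untreated control, cells given mastoparan, a peptide of wasp venom that activates G proteins, and cells given paraquat, a redox-cycling herbicide that raises superoxide. The labels give CypD expression as the genotype of all 3 day-8 libraries, while the design text mentions it for day 4. No source used here gives the reprogramming factors, their vector, the doses or the number of embryos or cultures behind a library.

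The stalk is a flexible arm of the large ribosomal subunit that recruits and activates the translation factors that bind GTP. The protein P0, encoded by Rplp0, is anchored on the large ribosomal RNA and carries dimers of P1 and P2, the products of Rplp1 and Rplp2, whose conserved acidic tails touch the elongation factors. The product of Rpsa sits in the small subunit near the site where mRNA leaves, and a form of it is also known at the cell surface as a laminin receptor. Transcripts of ribosomal proteins in vertebrates begin with a 5′ terminal oligopyrimidine (TOP) tract, through which the kinase complex mTORC1 and the RNA-binding protein LARP1 control their translation. Their genes are also known for many processed copies elsewhere in the genome, some of which keep a nearly intact coding sequence.

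On GRCm38, the assembly also called mm10, the GENCODE M21 annotation places Rplp0 (ENSMUSG00000067274) on chromosome 5 from 115559467 to 115563727, on the plus strand. Rplp1 (ENSMUSG00000007892) lies on chromosome 9 from 61913284 to 61914542, on the minus strand. Rplp2 (ENSMUSG00000025508) lies on chromosome 7 from 141447370 to 141451585, on the plus strand. Rpsa (ENSMUSG00000032518) lies on chromosome 9 from 120127689 to 120132369, on the plus strand. The copies matter here because a short read from one may also match the other. Of all distinct stretches of 49 bases in the transcripts of Rplp1, 60.5% were found in another gene that has a row, all of them in Gm10073. Of those of Rplp0, 22.2% were found in Gm8730. For Rplp2 the share was 14.1%, all in Wdr89, and for Rpsa it was 0. The following 60-base windows of each stalk transcript and its copy, read from GENCODE M21 transcripts, 5′ to 3′, show how close the copies are, with the mismatched bases in capitals.
Rplp0: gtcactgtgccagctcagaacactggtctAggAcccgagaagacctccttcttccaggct
Gm8730: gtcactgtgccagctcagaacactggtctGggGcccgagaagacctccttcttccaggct
Rplp1: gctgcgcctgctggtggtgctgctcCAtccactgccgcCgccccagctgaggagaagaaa
Gm10073: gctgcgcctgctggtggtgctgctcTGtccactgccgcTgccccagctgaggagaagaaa
The first pair differed at 2 bases of 60 and the second at 3. The windows of Rplp0 and Rplp1 lie in their coding sequence; Gm8730 is annotated as a processed pseudogene and Gm10073 as protein coding.

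The start regions of Rplp0, Rplp2 and Rpsa are shown because the TOP tract that defines this class of mRNA begins at the transcript start. The RefSeq promoter table of GRCm38.p6 held an entry for these 3 genes. Each stretch below runs 5′ to 3′ on the plus strand and holds 75 bases before the annotated start and 25 from it. Capitals mark a TOP tract, taken as a C followed by at least 4 pyrimidines that begins within 5 bases of the start, or the motif TATAAA.
Rplp0, chr5:115559392-115559491: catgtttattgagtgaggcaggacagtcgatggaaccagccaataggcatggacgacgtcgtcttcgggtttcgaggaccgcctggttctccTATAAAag
Rplp2, chr7:141447576-141447675: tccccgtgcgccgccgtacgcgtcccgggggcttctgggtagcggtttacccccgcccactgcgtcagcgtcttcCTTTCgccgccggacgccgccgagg
Rpsa, chr9:120127691-120127790: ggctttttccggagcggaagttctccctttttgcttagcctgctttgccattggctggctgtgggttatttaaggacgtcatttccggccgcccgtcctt
The tract CTTTC lay at position 1 of Rplp2, counting the annotated start as 1, and no such tract met the rule at the annotated starts of Rplp0 and Rpsa. A TOP tract by this rule was present in 18.3% of the 32851 promoters in the table and in 42.1% of the 76 promoters of 64 genes with a ribosomal protein symbol. The motif CCGGAAG, searched on both strands from 250 bases before the start to 50 after it as the core of sites for Ets-family factors such as GABP, was found in 8.86% of all promoters, in 35.5% of the ribosomal protein promoters, and in Rplp2 at position -108 and Rpsa at position -188, outside the stretches printed. TATAAA, searched the same way, was found in 13.6% of all promoters and in 10.5% of the ribosomal protein promoters. In Rplp0 it lay at position 18, after the annotated start. The tract was searched on the strand of the gene, and in these 3 genes the matches did not overlap. A match or its absence describes the letters of these windows alone, and an annotated start may differ from the one used in these cells.

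Summed expected counts were between 2426015 and 3426702 per library, so a row with a count of 0 allows a level of up to 0.875 to 1.24 CPM before scaling. The fibroblast label was checked with 9 marker genes, of which 8 reached at least 1 CPM in every library. Their summed level was 2894 scaled CPM with Flag, 2783 with CypD, 2938 in the day-8 control, 2864 with mastoparan and 2546 with paraquat. Markers of pluripotent cells summed to between 11.8 and 35.0 CPM, with Dppa3 at 0 in all libraries. Epithelial markers summed to 183 and 167 CPM at day 4 and to between 496 and 565 CPM at day 8. Macrophage markers reached at most 18.5 CPM with Adgre1 at 0, endothelial markers at most 60.7 CPM with Cdh5 at 0, erythroid markers at most 1.05 CPM with Alas2 and Hba-a1 at 0, and neural markers between 139.9 and 234 CPM. Fgf4, at 6.71 to 25.1 CPM, gave most of the pluripotent sum, and Cd68, at 5.13 to 17.2 CPM, most of the macrophage sum. Tek, at 46.4 to 55.1 CPM, gave most of the endothelial sum, and Nes, at 113 to 159 CPM, most of the neural sum. In bulk RNA a change in the number of cells of a type and a change in RNA per cell cannot be told apart. With 1 library per group the intervals below cover counting error only, no test between conditions could be made, and a difference in condition cannot be told apart from a difference between 2 cultures or 2 library preparations.

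All 4 genes were among the most abundant transcripts measured. Rplp1 had the highest deposited TPM (a level per unit of transcript length, scaled to the same sum in every library) of all rows in every library. Its level was 16957 TPM with Flag, 17148 with CypD, 17242 in the day-8 control, 18718 with mastoparan and 23350 with paraquat. Rplp0 stood at 7510, 7343, 7157, 7297 and 6867 TPM in the same order, and ranked between 8 and 20 among all rows. It was the one of the 4 genes whose TPM was lowest in the paraquat library. Rplp2 stood at 4743, 4804, 6424, 6511 and 9834 TPM and ranked between 25 and 9, with its highest rank under paraquat. Rpsa stood at 4801, 4998, 5442, 5481 and 6650 TPM and ranked between 21 and 23 throughout.

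The order of the genes by TPM was not fixed. Rplp1 was first and Rplp0 second at day 4 and in the day-8 control and mastoparan libraries, and in these day-8 libraries Rplp2 stood above Rpsa. With Flag, Rplp2 and Rpsa were within counting error of each other, at 4743 TPM with a 95% interval of 4590 to 4899 against 4801 TPM with one of 4723 to 4879. With CypD the intervals of these 2 genes also met, at 4674 to 4937 for Rplp2 and 4932 to 5065 for Rpsa. In the paraquat library Rplp2 was second, above Rplp0, whose interval of 6757 to 6980 TPM lay just above that of Rpsa, 6566 to 6736 TPM. TPM is a share of the rows in these tables, so it does not give the order of these genes among the 79 family genes not analysed here.

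Together the 4 genes took 1.79% of all counts with Flag, 1.86% with CypD, 1.99% in the day-8 control, 2.10% with mastoparan and 2.76% with paraquat. The exact 95% intervals ran from 1.77% to 1.80% for Flag and from 2.74% to 2.78% for paraquat, the lowest and highest libraries. By deposited TPM the shares were 3.40%, 3.43%, 3.63%, 3.80% and 4.67% in the same order. The paraquat library was thus the highest by both units and Flag the lowest.

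**Figure D1:**
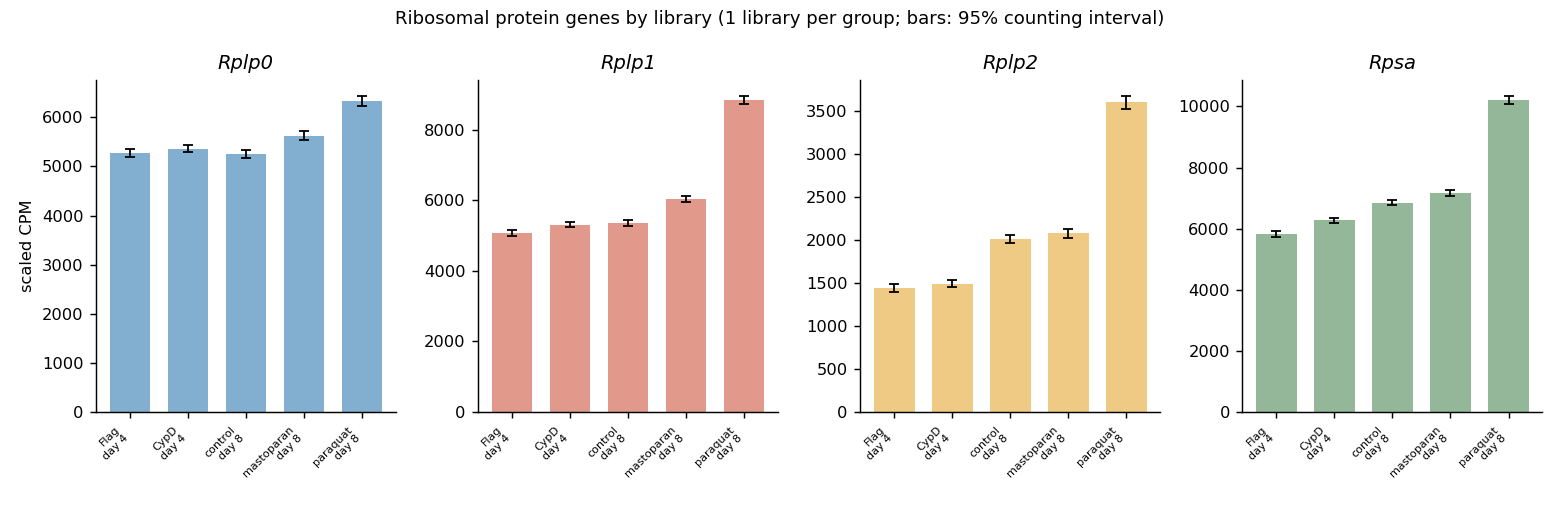
Level of Rplp0, Rplp1, Rplp2 and Rpsa in each library as scaled CPM, with 1 panel per gene and its own vertical axis from 0. Bars are single libraries and error bars are exact 95% Poisson intervals of the count. The paraquat bar is the tallest in all 4 panels, while Rplp0 spans only 5249 to 6342 CPM.

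Counts scaled by TMM factors (scaled CPM, counts for each 1000000 of the scaled library) serve for comparisons of 1 gene between libraries. On this scale Rplp0 stood at 5273 with Flag, 5365 with CypD, 5249 in the day-8 control, 5629 with mastoparan and 6342 with paraquat. Rplp1 stood at 5067, 5304, 5350, 6024 and 8845 in the same order, and Rplp2 at 1440, 1490, 2011, 2077 and 3606. Rpsa stood at 5823, 6276, 6854, 7161 and 10227. Every gene was highest with paraquat, and the genes differed in how far the other libraries spread: Rplp0 differed little between them, while Rplp2 was clearly lower in both day-4 libraries.

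At day 4 the question was whether expression of CypD altered these transcripts. The 4 genes were close to their Flag levels. Rplp0 was 1.02-fold the Flag level with CypD, with a 95% interval of 0.995 to 1.04 and a log2 ratio of -0.03 by TPM, and Rplp2 was 1.03-fold, with one of 0.991 to 1.08, so both intervals hold 1. Rplp1 was 1.05-fold higher, with an interval of 1.02 to 1.07, and Rpsa 1.08-fold higher, with one of 1.06 to 1.10. None of the 4 genes passed 1.5-fold in either direction, against 5.22% of 13244 genes at least 1.5-fold higher and 5.75% at least 1.5-fold lower. The median log2 ratio of the 4 genes, taken on log2 of scaled CPM plus 0.5, was 0.06, beside -0.02 over all genes.

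Short transcripts were slightly higher with CypD in general. For a comparison by length the 4 genes were left out, while copies such as Gm10073, at 496 bases, were kept. The 200 genes nearest in length to Rplp1 and Rplp2 had a median log2 ratio of 0.13, and those nearest to Rplp0 and Rpsa one of 0.04. Relative to these, the log2 ratio was -0.01 for Rplp0, -0.06 for Rplp1, -0.08 for Rplp2 and 0.07 for Rpsa. With length taken into account, 3 of the 4 genes therefore lay just below 0 and Rpsa just above it.

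Mastoparan against the untreated day-8 control gave a second comparison of small differences. Rplp1, the most abundant of the 4 per length, showed the largest one, at 1.13-fold higher with mastoparan and an interval of 1.10 to 1.15. Rplp0 was 1.07-fold higher, with an interval of 1.05 to 1.10, and Rpsa was 1.04-fold higher, with one of 1.02 to 1.07. Rplp2 was 1.03-fold the control level and its interval of 0.996 to 1.07 held 1. None passed 1.5-fold, against 5.01% of 13651 genes higher and 5.87% lower. The median log2 ratio of the 4 genes was 0.08, beside 0.01 over all genes, and relative to genes of like length Rplp0 stood at 0.05, Rplp1 at 0.08, Rplp2 at -0.05 and Rpsa at 0.06.

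Paraquat against the untreated control gave larger differences, and the genes differed among themselves. Rplp2 went from 2011 to 3606 scaled CPM, 1.79-fold higher, with an interval of 1.73 to 1.85. Rplp1 was 1.65-fold higher, with an interval of 1.62 to 1.69, and Rpsa was 1.49-fold higher, with one of 1.46 to 1.52. Rplp0, the protein on which the other stalk proteins are mounted, was 1.21-fold higher on this scale, with an interval of 1.18 to 1.24, but lower by deposited TPM, with a log2 ratio of -0.06. By TPM the log2 ratio was 0.44 for Rplp1, 0.61 for Rplp2 and 0.29 for Rpsa, so these kept their direction. The median log2 ratio over all genes was -0.03 in scaled CPM and -0.28 in TPM, so the direction of Rplp0 depended on the scale.

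Rplp1 and Rplp2 passed 1.5-fold higher with paraquat and none passed 1.5-fold lower, against 8.15% of 13651 genes higher and 10.5% lower. Abundant genes were more often higher: among the 85 genes that averaged 1000 CPM or more at day 8, 18.8% were at least 1.5-fold higher and 3.53% at least 1.5-fold lower. These genes include the ribosomal protein genes described here. Those at least 1.5-fold higher include Rplp1, Rplp2 and copies of other ribosomal protein genes such as Gm10036, Gm10076, Gm10263 and Gm2000. The log2 ratio was 0.27 for Rplp0, 0.73 for Rplp1, 0.84 for Rplp2 and 0.58 for Rpsa, with a median of 0.65. Rpsa lay at the edge of the 1.5-fold limit and passed it with DESeq2 size factors, at 0.59, and with upper-quartile factors, at 0.62.

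The paraquat library held relatively more counts from short transcripts, and Rplp1 and Rplp2 are short, at 495 and 494 bases. The 200 genes nearest to them in length, between 402 and 556 bases, had a median log2 ratio of 0.54, and 10% to 90% of these lay between -0.35 and 1.06. Those nearest to Rplp0, at 1112 bases, had a median of 0.21, with the same span at -0.44 to 0.59. Those nearest to Rpsa, at 1861 bases, had a median of -0.00, with the span at -0.59 to 0.36. Relative to the median of its neighbours the log2 ratio was 0.06 for Rplp0, 0.19 for Rplp1, 0.30 for Rplp2 and 0.58 for Rpsa. At 1861 bases Rpsa thus lay above the 90% point of its length neighbours, and the other 3 genes lay inside the span of theirs. With the length trend removed from all genes, none of the 4 passed 1.5-fold in either direction, against 6.56% of genes higher and 8.5% lower. Why the ratio follows length in this library was not tested. Of the 9 fibroblast markers 2, Dcn and Lum, were at least 1.5-fold lower with paraquat, against 10.5% of all genes. Lum was low in both libraries, at 3.57 scaled CPM in the control and 0.866 with paraquat. The median log2 ratio of the 9 markers was -0.26, and -0.04 with the length trend removed. The part of these markers in the values above was not tested.

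The value for Rpsa depends on its length. The tables list 1 of its 6 M21 transcripts. If the gene is taken as 1599 bases long, the length of its second longest transcript, its log2 ratio relative to length neighbours was 0.51, and at 1101 bases, the next, it was 0.34. These lengths were chosen after the main value had been seen. Shorter Rpsa transcripts were not tried, and the 90% point of the neighbours was not taken at 1599 or 1101 bases. That of the neighbours of Rplp0, at 1112 bases, was 0.59, above the 0.58 of Rpsa. Rpsa shared no 49-base stretch with another gene that has a row.

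**Figure D2:**
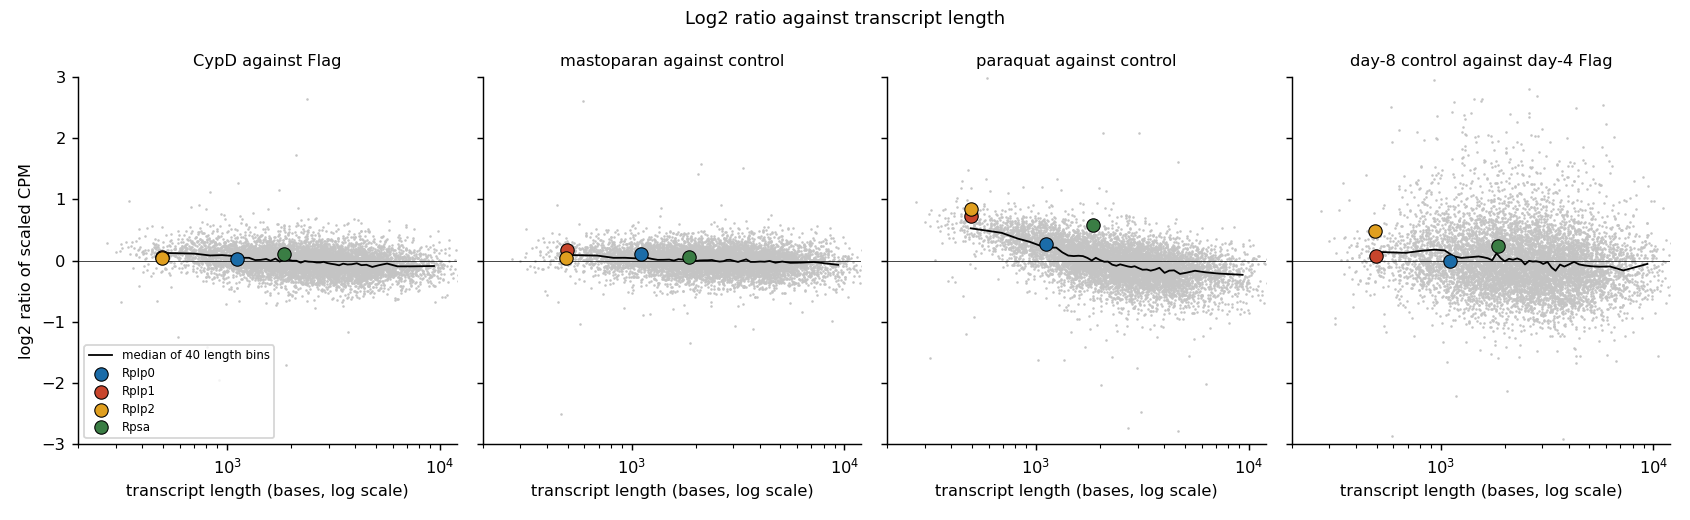
Log2 ratio of scaled CPM against mean transcript length in bases (log axis) for 4 comparisons, with genes of at least 20 CPM in grey, the medians of 40 length bins as a black line and the 4 ribosomal protein genes as coloured points. Some grey points beyond the axes are not drawn. Under paraquat the line falls with length, Rplp0 sits on it, Rplp1 and Rplp2 sit at its upper left above 0.7, and Rpsa sits clearly above it at 0.58.

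Mastoparan and paraquat were also set against each other. This shares the paraquat and mastoparan libraries with the comparisons against control, which in turn share the control library, so it adds no independent observation. Rplp2 was 1.74-fold lower with mastoparan than with paraquat, with an interval of 1.68 to 1.80, and was the one gene of the 4 past 1.5-fold lower, against 7.54% of genes. No gene of the 4 was 1.5-fold higher, against 9.54% of genes. Rplp1 was 1.47-fold lower, Rpsa 1.43-fold lower and Rplp0 1.13-fold lower, though by TPM Rplp0 was higher with mastoparan, with a log2 ratio of 0.09. Relative to their length neighbours the log2 ratios were -0.01 for Rplp0, -0.11 for Rplp1, -0.35 for Rplp2 and -0.53 for Rpsa.

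Ratios between genes of 1 library do not depend on how libraries are scaled, though they do depend on length, which is shared by Rplp1 and Rplp2 alone. The TPM ratio of Rplp1 to Rplp0 was 2.26 with Flag, 2.34 with CypD, 2.41 in the day-8 control, 2.57 with mastoparan and 3.40 with paraquat. That of Rplp2 to Rplp0 was 0.632, 0.654, 0.898, 0.892 and 1.43 in the same order. The ratio of Rplp2 to Rplp0 was thus lowest in both day-4 libraries, intermediate in the control and mastoparan libraries of day 8, and highest with paraquat. In the paraquat library its interval was 1.39 to 1.47, against 0.872 to 0.924 in the control.

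Rplp1 and Rplp2, whose products pair with each other, have nearly the same length, so the length trend bears little on their ratio. This ratio, Rplp1 over Rplp2 in TPM, was 3.58 with Flag and 3.57 with CypD, 2.68 in the day-8 control, 2.87 with mastoparan and 2.37 with paraquat. Both day-4 values, with intervals of 3.45 to 3.71 and 3.46 to 3.68, lay above all 3 day-8 values, whose highest interval ended at 2.96. Among the day-8 libraries the intervals did not overlap either, at 2.61 to 2.76 for control, 2.79 to 2.96 for mastoparan and 2.31 to 2.44 for paraquat. The TPM of Rplp2 was therefore closer to that of Rplp1 at day 8 than at day 4, and closest with paraquat. The ratio of Rpsa to Rplp0 was 0.639, 0.681, 0.760, 0.751 and 0.968 TPM in the order Flag, CypD, control, mastoparan and paraquat.

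**Figure D3:**
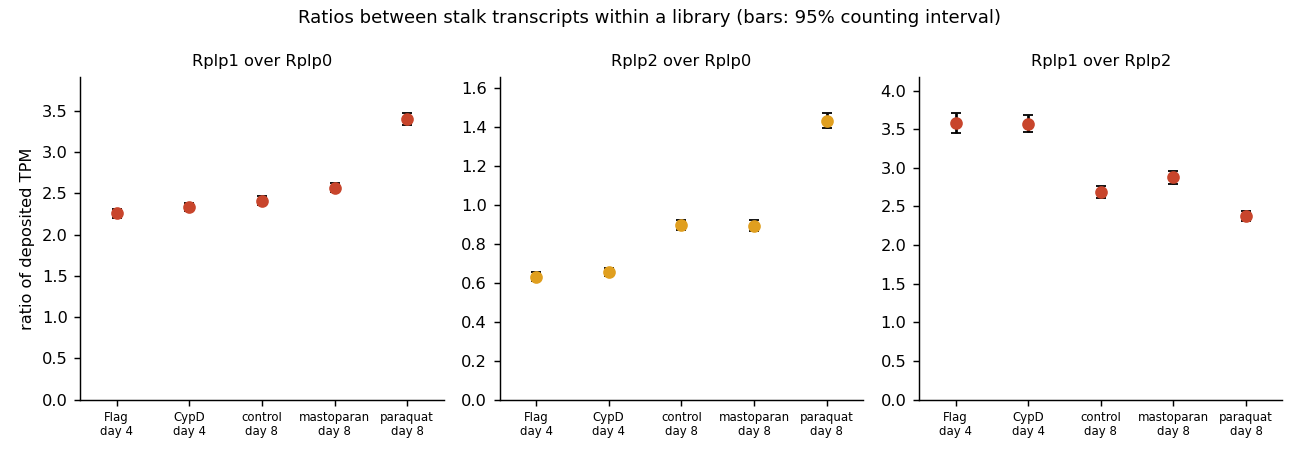
Ratios of deposited TPM between stalk genes within each library, drawn from 0, with 1 point per library and 95% counting intervals as error bars. Rplp1 over Rplp0 and Rplp2 over Rplp0 are highest with paraquat, at 3.40 and 1.43, while Rplp1 over Rplp2 is lowest there, at 2.37.

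Between day 4 and day 8 the labels differ in day and in the genotype given, so these cannot be told apart. Rplp2 was 1.40-fold higher in the day-8 control than in the day-4 Flag library, with an interval of 1.34 to 1.45, and Rpsa 1.18-fold higher, with one of 1.15 to 1.20. Rplp1 was 1.06-fold higher, with an interval of 1.03 to 1.08. Rplp0 was 0.995-fold the Flag level, and its interval of 0.973 to 1.02 held 1. None passed 1.5-fold, against 19% of 13584 genes higher and 12.8% lower. Relative to length neighbours, Rplp2 was at 0.34 and Rpsa at 0.11 on the log2 scale, while Rplp0 was at -0.09 and Rplp1 at -0.07. Of the 4 genes 3, all but Rplp0, had all 3 day-8 levels above both day-4 levels, as did 28.5% of all genes, and none had all below, against 28.1%. The 3 day-8 libraries are not replicates of a condition.

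Some reads of the stalk genes may have been counted in the copies, and the reverse, so sums are given too. Gm8730 held 21.7% of the summed counts of Rplp0 and Gm8730 in the control and 25.3% with paraquat. The sum was 1.27-fold higher with paraquat, with an interval of 1.24 to 1.29, beside 1.21-fold for Rplp0 alone. Gm10073 held between 1.30% and 1.95% of its sum with Rplp1 in the Flag, CypD, control and mastoparan libraries, and 2.42% with paraquat, and Rplp1 with Gm10073 was 1.66-fold higher with paraquat, with an interval of 1.63 to 1.70. For both pairs the direction with paraquat was thus that of the gene alone. For day-8 control against day-4 Flag it was not for Rplp0, whose sum with Gm8730 was 1.03-fold higher, with an interval of 1.01 to 1.05, beside 0.995-fold for Rplp0 alone.

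Rows of copies may hold reads of family genes that have no row of their own. By the rule that at least 20% of a row's 49-base stretches occur in the transcripts of a ribosomal protein gene or of Fau, 21 rows were found, and each held at least 100 counts in every library. The 21 were nearest to 16 genes, 13 of them not analysed here, among them Rps2, Rpl11, Rps18 and Rpl35. Most are annotated as processed pseudogenes, and reads from a stretch that copy and gene share cannot be told apart in these tables. Rpl6l, which carries a family symbol but is annotated as a processed pseudogene, had expected counts of 7707 with Flag, 11325 with CypD, 10364 in the control, 10300 with mastoparan and 10627 with paraquat. Gm10709, whose transcript belongs to Rpl29 in M21, had 2844, 4214, 3931, 4154 and 3989. These copies, which were found by shared sequence, add to the share of counts: with them it was 4.75%, 5.01%, 5.39%, 5.69% and 7.26% in the order Flag, CypD, control, mastoparan and paraquat.

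With paraquat all 21 rows were above 0 on the log2 scale, beside 6471 of 13651 genes. The median of the 21 rows was 0.53, and 6 were at least 1.5-fold higher, against 8.15% of all genes. Removal of the length trend brought the median to 0.06 with 1 row, Gm10073, still past 1.5-fold higher, against 6.56% of all genes. Then 14 of the 21 rows were above 0, beside 6809 of the 13651 genes. The 18 rows nearest to genes not analysed here lay between 0.28 and 0.76, with a median of 0.53, and between -0.13 and 0.23 with the length trend removed. With CypD the median of the 21 rows was 0.12 and with mastoparan 0.09, and with the length trend removed these were -0.00 and 0.01. With the length trend removed Rpsa at 0.58 and Rplp2 at 0.31 were above these 18 rows, while among the other 3 Gm10073 was at 0.66 and Gm8730 at 0.31.

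**Figure D4:**
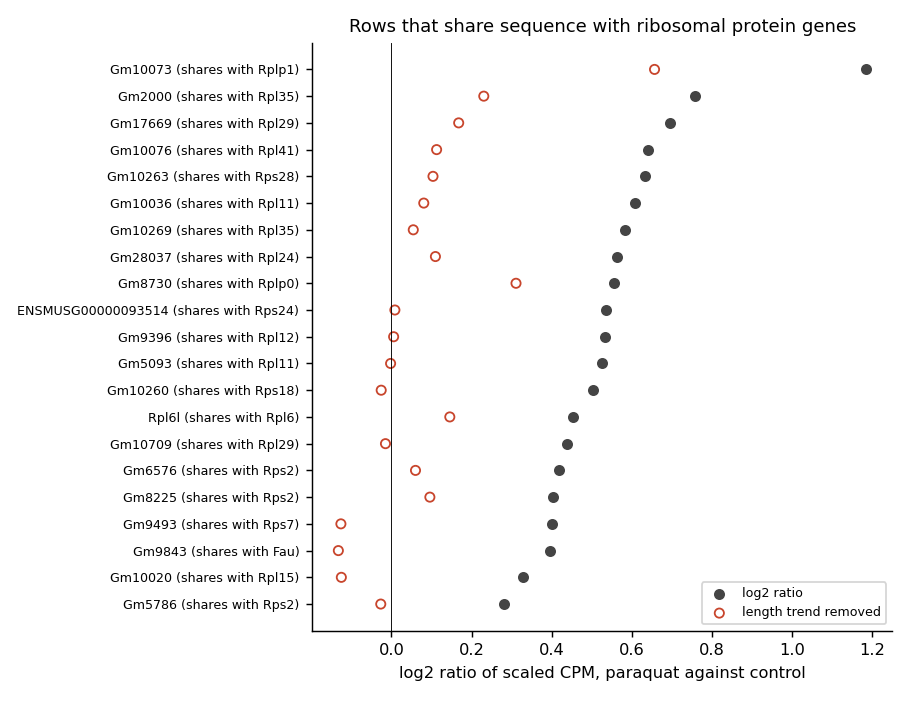
Log2 ratio of scaled CPM, paraquat against control, for 21 rows that share sequence with ribosomal protein genes; filled points are the ratio and open points the ratio with the length trend removed, and the gene in brackets is the one each row shares most with. All 21 filled points are above 0, while the open points of all but Gm10073, Gm8730 and Gm2000 lie within 0.2 of 0.

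Fau, which encodes a ubiquitin-like protein fused to a protein of the small subunit, has the copy Gm9843, all of whose stretches occur in Fau. For paraquat against control the log2 ratio was 1.33 for Fau alone, 0.40 for Gm9843 alone and 0.63 for the sum of both. As a fold the sum was 1.55-fold higher, with an interval of 1.497 to 1.61. Gm9843 held 80.4% of the summed counts in the control and 68.1% with paraquat. Values of Fau alone are uncertain because of the shared stretches, and whether the split of reads or the transcripts differed was not tested.

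Other genes with TOP mRNAs, such as elongation factors, are controlled by the same translational machinery and were listed as a group of 20, all of them measured. With paraquat 15 were above 0, beside 6471 of 13651 genes. The median of the 20 was 0.22, and 2 were at least 1.5-fold higher, against 8.15% of all genes. These 2 were Fau, with the values above, and Tmsb10, an actin-binding thymosin, at 0.66. Eef1b2 and Eef1d, subunits of the exchange factor of elongation factor 1, were at 0.52 and 0.55, while Eef1a1, which brings aminoacyl-tRNA to the ribosome, was at -0.06 and Eef2, the translocase that the stalk recruits, at -0.18. Eef2 was at 5836 CPM with Flag, 5406 with CypD, 5422 in the control, 5260 with mastoparan and 4796 with paraquat. With the length trend removed the median was 0.03 and 1 gene, Fau, was past 1.5-fold higher, against 6.56% of all genes. On that scale 11 of the 20 were above 0, beside 6809 of 13651 genes. Eef1g and Eif3f, of 1857 and 1563 bases, were at 0.40 and 0.43 with the trend removed, next to Rpsa at 0.58. With CypD and with mastoparan none of the 20 passed 1.5-fold, with medians of 0.06 and 0.07. Over all genes 5.22% and 5.01% were at least 1.5-fold higher and 5.75% and 5.87% lower in these comparisons.

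**Figure D5:**
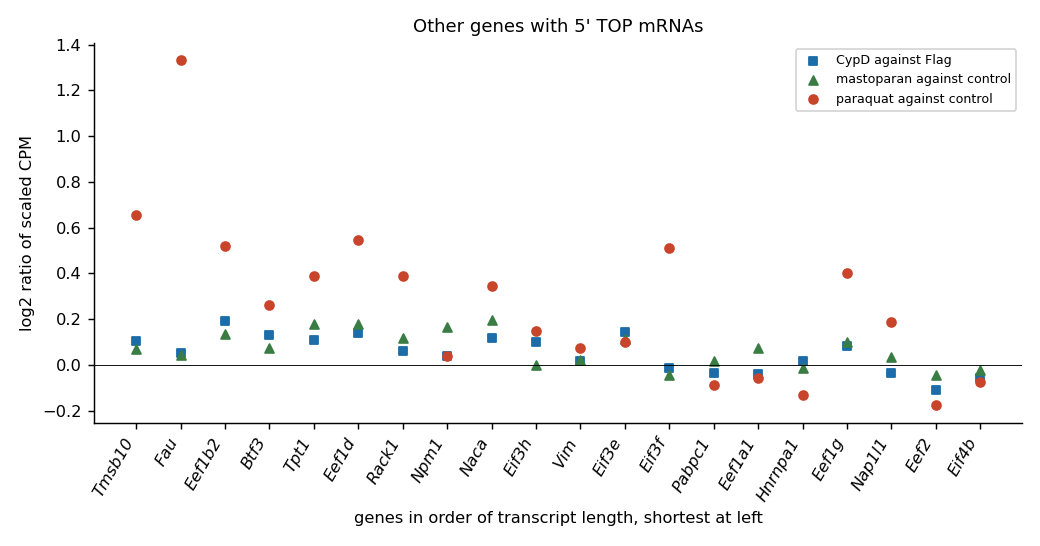
Log2 ratio of scaled CPM for 20 other genes with TOP mRNAs in 3 comparisons, in order of transcript length with the shortest at left. Red points, paraquat against control, are highest at the short end, with Fau, whose reads are shared with a copy, at 1.33, and Eef2, among the longest, is at -0.18.

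Other groups of genes around ribosomal protein synthesis were described by the same counts with paraquat. Among all 13651 genes 8.15% were at least 1.5-fold higher and 10.5% at least 1.5-fold lower. In groups of 8, 11 or 15 measured genes, 1 lower gene is near that share. Of 17 genes of mTORC1 and of translational control of TOP mRNAs 15 were measured. Their median log2 ratio was -0.06, and 0.07 with the length trend removed. None was at least 1.5-fold higher and 1 was lower. The lower one was Eif4ebp2, a repressor of the cap-binding factor eIF4E, at 23.0 CPM in the control and 10.4 with paraquat. Larp1, the TOP-binding repressor, was at 0.01 and Mtor at -0.35, and at 0.20 and -0.16 with the length trend removed. Of 11 chaperones and importers of ribosomal proteins, with a median of 0.19 and of 0.10 with the length trend removed, 1 was lower, Ipo7, an importin, at 50.3 CPM in the control and 8.66 with paraquat, a log2 ratio of -2.47. Of 29 initiation factors and of 13 measured genes of ribosome quality control none passed 1.5-fold, with medians of 0.10 and -0.01. With the length trend removed these medians were 0.04 and 0.01. Of 8 transcription factors bound at ribosomal protein promoters, with a median of -0.19 and of -0.15 with the length trend removed, 1 was lower, Myc, at -0.80, which is also a factor used in reprogramming, so that the cell's own Myc and a delivered copy cannot be told apart. Gabpa, the DNA-binding part of GABP, was at -0.57, and at -0.36 with the length trend removed.

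In the comparison of day-8 control with day-4 Flag, 4 of these groups had medians below -0.2, while the 8 transcription factors had 4 above and 4 below 0, a median of -0.03 and 1 gene, Tbp, at least 1.5-fold lower. The 11 chaperones and importers were all below 0, beside 6752 of 13584 genes, with a median of -0.49 and 3 at least 1.5-fold lower. The medians were -0.24 for initiation factors with 4 lower, -0.49 for quality control with 6 lower and -0.32 for the mTORC1 group with 5 lower, and none in these groups was at least 1.5-fold higher. Over all genes 19% were at least 1.5-fold higher and 12.8% at least 1.5-fold lower, the latter near the share of the initiation factors, 4 of 29. With the length trend removed 4 chaperones and importers, 4 initiation factors, 4 quality control genes and 2 of the 15 mTORC1 genes were lower. Of all genes 12.4% were lower on that scale. The medians of these groups were then -0.48, -0.25, -0.35 and -0.36 in that order. The other TOP genes had a median of 0.01, with Hnrnpa1, an RNA-binding protein, at -0.66 as the one gene past 1.5-fold.

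Other groups of short, abundant housekeeping transcripts give the nearest like groups. Over all genes 8.15% were at least 1.5-fold higher with paraquat, and 6.56% with the length trend removed. With paraquat the 77 mitochondrial ribosomal proteins had a median log2 ratio of 0.36, with 12 at least 1.5-fold higher, and of 0.06 with 1 once the length trend was removed. The 85 measured respiratory chain and ATP synthase genes had a median of 0.45, with 25 higher, and of 0.06 with 2. The 38 measured proteasome subunits had a median of 0.28, with 2 higher, and of 0.09 with 0. The 4 cytosolic ribosomal protein genes had a median of 0.65, with 2 higher, and of 0.26 with 0. The difference between the groups was not tested, since there is 1 library per group.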

How the data were processed

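Per the labels' protocols, Trizol served to extract RNA and a TruSeq kit to make libraries from 1 ug of it. Bowtie2 2.2.5 and mm10 are named in the submitters' processing notes, and no source used here names the counting program. Per the file headers, the authors gave for each gene an expected count, a TPM, a mean transcript length and an effective length. Lengths deposited by the authors are in bases, and between 16.8% and 19.0% of the expected counts had a fractional part. The deposited TPM summed to 1000000. Expected counts were rounded and scaled by TMM factors (0.951 for paraquat, 1.01 to 1.02 otherwise) from edgeR 4.0.16 in R 4.3.3. DESeq2 1.42.0 gave other size factors. Symbols came from GENCODE M21 for 28756 of 29267 IDs. Log2 ratios use scaled CPM plus 0.5, for genes averaging 1 CPM or more at that day (over all 5 libraries for day 8 against day 4). Folds carry exact Clopper-Pearson 95% intervals and levels exact Poisson intervals. Length neighbours were the 100 genes on either side in length, and length trends were medians of 40 bins. Shared sequence was counted in 49-base windows of listed transcripts. Python 3.11.15, numpy 2.4.6, scipy 1.17.1, pandas 2.3.3 and matplotlib 3.10.9 were used. The fold intervals and the removal of length trends were tested on simulated Poisson counts with known folds and a known length trend. The other steps were not tested in this way. Genes named were the 4 found, the members of the lists and up to 4 per list with the largest ratios, and others named, such as Eef2, were chosen after their values were seen. The members and lists were chosen with earlier results of these data known. Of the genes listed 1, with its copies, is not reported here. No test was made between conditions.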

Additional observations from a re-analysis of the deposited data

How the results depend on the processing

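No paired analysis was possible because each group has 1 library, and leaving out a library would leave an empty group. No tissue-restricted paralogs were analysed here, so leaving them out was not run. Under the scalings, pseudocounts, filters and length settings run, no value past 1.5-fold changed direction. The median of the 4 genes with CypD was -0.056 with 40 length bins removed, -0.037 relative to 200 length neighbours, -0.0294 with length and GC trends removed and -0.0576 relative to neighbours of at least 100 CPM. With mastoparan it was 0.0237 by TPM and 0.0498 relative to neighbours of at least 100 CPM. With paraquat it was 0.55 by library totals, 0.70 with upper-quartile factors, 0.36 by TPM and 0.71 without genes that share sequence, and in the order of the length settings above it was 0.26, 0.24, 0.22 and 0.25. The number at least 1.5-fold higher with paraquat was 3 with DESeq2 size factors and 3 with upper-quartile factors, where Rpsa is added. It was 1 by TPM, 1 without Rplp0 and Rplp1 and 0 in each length setting. For mastoparan against paraquat the median was -0.45 by library totals, -0.57 with upper-quartile factors, -0.30 by TPM and -0.65 without Rplp0 and Rplp1. It was -0.24, -0.23, -0.20 and -0.24 in the length settings. The number at least 1.5-fold lower there was 2 with upper-quartile factors and 0 in each length setting. For day 8 against day 4 the median was 0.10 by TPM, 0.0249 with length bins removed and 0.023 relative to neighbours. It was -0.0302 with length and GC trends removed and 0.36 without Rplp0 and Rplp1. The number with all day-8 levels below was 1 by TPM, and with all above was 1 with length removed. The shares of counts were 3.40%, 3.43%, 3.63%, 3.80% and 4.67% by TPM and 4.75%, 5.01%, 5.39%, 5.69% and 7.26% with copies. The neighbours of at least 100 CPM and the other lengths of Rpsa were alternatives chosen after seeing the data. Of the summary values under alternatives 50 moved and 197 stayed within the medians of the genes' counting bounds, the counting interval of a share or, for counts, 1.5 times. The causes were not tested beyond the construction of each setting. The smallest count of a member was 3650.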
